A study of Mus musculus with 13 samples.

Results

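The genes that mark alveolar type 1 (AT1) cells were followed in mouse lung after high oxygen. The 10 genes, Ager, Hopx, Pdpn, Rtkn2, Cav1, Clic5, Emp2, Akap5, Igfbp2 and Vegfa, were chosen by name from the known marker genes of this cell type. They are 10 of the 32544 genes in the count table, and all 10 were among the 12496 genes that passed the filter on low counts and were tested. The libraries came from whole perfused lungs of wild-type C57BL/6J male mice, bought at 7 weeks of age, that breathed either 21% O2 (normoxia, 7 mice) or 80% O2 (hyperoxia, 6 mice) for 5 days. The RNA was read by Quant-seq, which reads only the 3′ tails of messenger RNAs. Each count therefore stands for a transcript end and not for a stretch of gene body. No cells were sorted, and no genetic change separated the groups.

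AT1 cells are the thin, flat epithelial cells that cover most of the alveolar surface and form, with the capillary endothelium, the barrier through which oxygen passes into the blood. Cuboidal alveolar type 2 (AT2) cells make surfactant and can give rise to new AT1 cells, passing through a transitional state rich in keratins. High oxygen is a classical injury of this barrier. Several of the 10 genes are not restricted to AT1 cells, since capillary endothelium also expresses Cav1 and Emp2, and lymphatic endothelium and mesothelium also express Pdpn.

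Total counts ran from 1607111 to 3387736 in the normoxic and from 2029006 to 4540288 in the hyperoxic libraries. Hyperoxia replicate 1 stood apart. Its correlations with the other 12 libraries across genes lay between 0.721 and 0.833, against 0.854 to 0.967 among those 12, and mitochondrial transcripts took 0.944% of its counts, against 1.94 to 2.74% in the other hyperoxic and 2.19 to 3.24% in the normoxic libraries. The comparison of each of the 10 genes is therefore given with and without it. Markers of the tissue were present: Sftpc, the surfactant protein of AT2 cells, was at 9637 ± 2850 CPM in the normoxic libraries (mean ± SD, n = 7), where CPM is the usual scaled count, the count of a gene set against the TMM-adjusted total of its library.

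The genes lie on 8 chromosomes of the mm10 build (GRCm38), each at its own locus. Ager spans chr17:34597862-34600936, Vegfa chr17:46016993-46032369 and Clic5 chr17:44188584-44280172. Pdpn spans chr4:143267431-143299564, Emp2 chr16:10281749-10313968, Akap5 chr12:76324891-76334153 and Igfbp2 chr1:72824503-72852474. The remaining genes, Hopx (chr5:77086988-77115121), Rtkn2 (chr10:67979570-68059740) and Cav1 (chr6:17306335-17341452), are each overlapped by an annotated antisense RNA gene that has no row of its own in the count table. Whether the counting used strand is not given in the sources used here, so reads of these 3 genes and of their antisense partners cannot be told apart. Windows of 250 bases upstream of annotated starts were taken from RefSeq (GRCm38.p6) for 9 genes, 13 windows in all, because both factors that respond to oxygen and factors that set AT1 identity act through promoters. Rtkn2 had no entry. The letters ACGTG, the core of the hypoxia-inducible factor site and on CACGTG also of the E-box, stood on either strand in 6 of the 13 windows (Cav1, both starts of Hopx, Igfbp2, Pdpn and the second start of Vegfa), against 16.6% of all 32851 RefSeq windows. GGAATG, the core of the TEAD site, was in 0 of 13 (12.6% of all windows), CAAGTG of NKX2-1 in 0 of 13 (11.6%), TGANTCA of AP-1 in 1 of 13 (6.75%, Igfbp2) and TATAAA in 1 of 13 (12.4%, Cav1). A match is a match of letters only, and its absence says only that these letters are not in the window. Shown here are the windows of Akap5 and Emp2, which hold none of these motifs, and those of Pdpn and Hopx, which carry ACGTG in capitals, on CACGTG in that of Pdpn. They were picked with the oxygen comparison known, Akap5 and Emp2 having passed with all libraries or without hyperoxia replicate 1 and Pdpn and Hopx in neither, and other windows without a motif are not shown, so that no link between motif and response can be read from these 4. That of Akap5 has 70.0% G and C and 20 CG pairs, against medians of 52.4% and 6 over all windows.
Akap5, chr12:76324641-76324890, plus strand: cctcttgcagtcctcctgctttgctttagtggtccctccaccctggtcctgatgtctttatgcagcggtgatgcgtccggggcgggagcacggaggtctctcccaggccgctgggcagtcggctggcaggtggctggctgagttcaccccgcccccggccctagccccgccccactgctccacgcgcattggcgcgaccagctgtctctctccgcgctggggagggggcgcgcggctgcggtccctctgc
Emp2, chr16:10313969-10314218, minus strand: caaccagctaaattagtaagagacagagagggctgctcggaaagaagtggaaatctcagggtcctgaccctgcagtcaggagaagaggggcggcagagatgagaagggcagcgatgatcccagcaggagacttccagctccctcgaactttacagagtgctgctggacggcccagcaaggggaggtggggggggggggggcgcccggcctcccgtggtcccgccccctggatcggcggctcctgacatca
Pdpn, chr4:143299565-143299814, minus strand: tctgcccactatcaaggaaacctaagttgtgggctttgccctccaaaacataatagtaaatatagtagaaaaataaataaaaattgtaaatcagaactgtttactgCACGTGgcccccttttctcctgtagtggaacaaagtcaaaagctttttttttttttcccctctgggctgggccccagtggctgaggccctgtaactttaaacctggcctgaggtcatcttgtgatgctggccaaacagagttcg
Hopx, chr5:77115124-77115373, minus strand: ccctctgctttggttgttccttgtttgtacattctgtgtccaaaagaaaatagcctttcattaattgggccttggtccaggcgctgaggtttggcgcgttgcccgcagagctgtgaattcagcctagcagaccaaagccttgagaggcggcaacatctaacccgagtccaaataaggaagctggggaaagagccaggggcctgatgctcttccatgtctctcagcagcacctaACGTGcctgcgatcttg

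Of the 10 genes, Akap5 rose and Rtkn2 fell in hyperoxia at an adjusted p under 0.05 (edgeR's quasi-likelihood test with Benjamini-Hochberg adjustment over all genes tested), while 8 did not pass. Among all genes tested 22.6% passed, 11.8% higher and 10.8% lower, so the share of AT1 genes that passed was near that of all genes. Their median log2 fold change was 0.03, beside −0.03 for all genes. That it lay near 0 was known when the genes were chosen, so this is a description. None of the 10 reached a log2 fold change of 1.5 in size with an adjusted p under 0.05, a mark that 3.91% of all genes passed. Without hyperoxia replicate 1, Emp2 also fell, so that 1 gene rose and 2 fell, against 15.2% and 13.3% of 12752 genes tested and 28.5% in either direction, and the median was 0.11. In whole lung, fewer AT1 cells and less of a transcript per AT1 cell cannot be told apart. A gene that missed the threshold is not thereby shown to be equal in both groups, and its 95% interval is given instead.

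**Figure D1:**
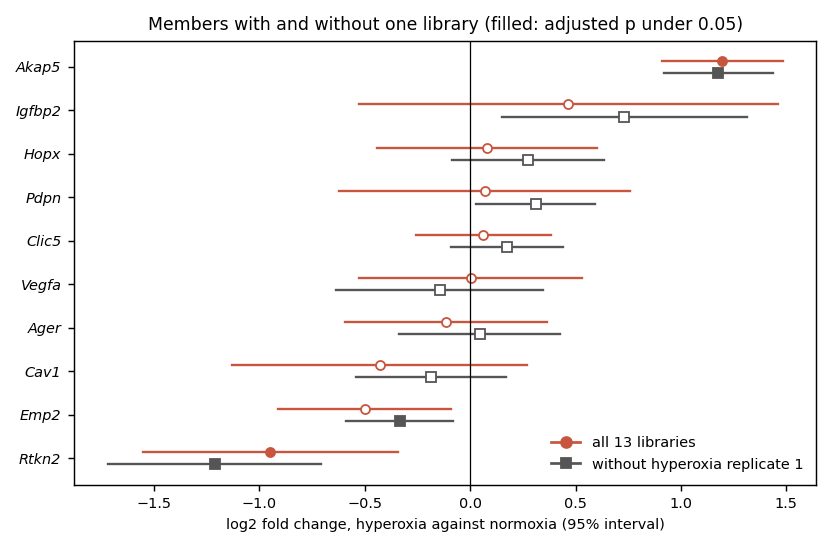
Log2 fold change of hyperoxia against normoxia (x axis) for each of the 10 genes (y axis), with bars for the 95% interval, from all 13 libraries (circles) and without hyperoxia replicate 1 (squares). Filled marks have an adjusted p under 0.05: Akap5 and Rtkn2 in both, Emp2 only in the fit without that library.

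Akap5 encodes a scaffold that holds protein kinase A and other signalling enzymes at the plasma membrane. Its level ran from 1020 CPM through a median of 1178 to 1437 CPM in the 7 normoxic libraries, and from 2100 through 2815 to 3056 CPM in the 6 hyperoxic libraries. Every hyperoxic library, replicate 1 included, lay above every normoxic one, a separation upwards that 5.6% of all genes tested showed. Downwards, 5.23% of all genes and none of the AT1 genes separated. The mean went from 1194 ± 133 (SD, n = 7) to 2734 ± 359 CPM (SD, n = 6), a log2 fold change of 1.20 (SE 0.14, adjusted p = 1.78e-05). Without hyperoxia replicate 1 the log2 fold change was 1.18 (SE 0.12, adjusted p = 3.5e-06). Of 11 A-kinase anchoring genes tested, 2 rose and 0 fell, with a median of −0.10 for the 10 other than Akap5. The other riser was Akap12, a further scaffold of protein kinase A and C, at 109 ± 43.6 (n = 7) and 651 ± 170 CPM (n = 6; log2 fold change 2.57, SE 0.24, adjusted p = 3.31e-06), also without overlap between the groups. Akap2 (log2 fold change 0.48, adjusted p = 0.0824) and Akap7 (−0.42, adjusted p = 0.109) passed only without replicate 1, at 0.61 (adjusted p = 0.00841) and −0.52 (adjusted p = 0.027).

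Rtkn2, which encodes rhotekin 2, was the gene that fell. Its level ran from 183 CPM through a median of 244 to 275 CPM in normoxia and from 54.5 through 102 to 229 CPM in hyperoxia. The highest hyperoxic value belonged to replicate 1, and it alone overlapped with normoxia, since replicates 2 to 6 were at 116, 54.5, 62.7, 176 and 88.6 CPM, each below the lowest normoxic library. The mean went from 233 ± 32.8 (SD, n = 7) to 121 ± 68.9 CPM (SD, n = 6), a log2 fold change of −0.95 (SE 0.28, adjusted p = 0.0246). Without replicate 1 it was −1.21 (SE 0.24, adjusted p = 0.00122). The call was near the threshold: leaving out any one of normoxia replicates 1, 2, 4, 6 and 7 or of hyperoxia replicates 2, 3, 4 and 6 raised the adjusted p to between 0.0528 and 0.0726, with log2 fold changes of −0.92 to −0.76.

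**Figure D2:**
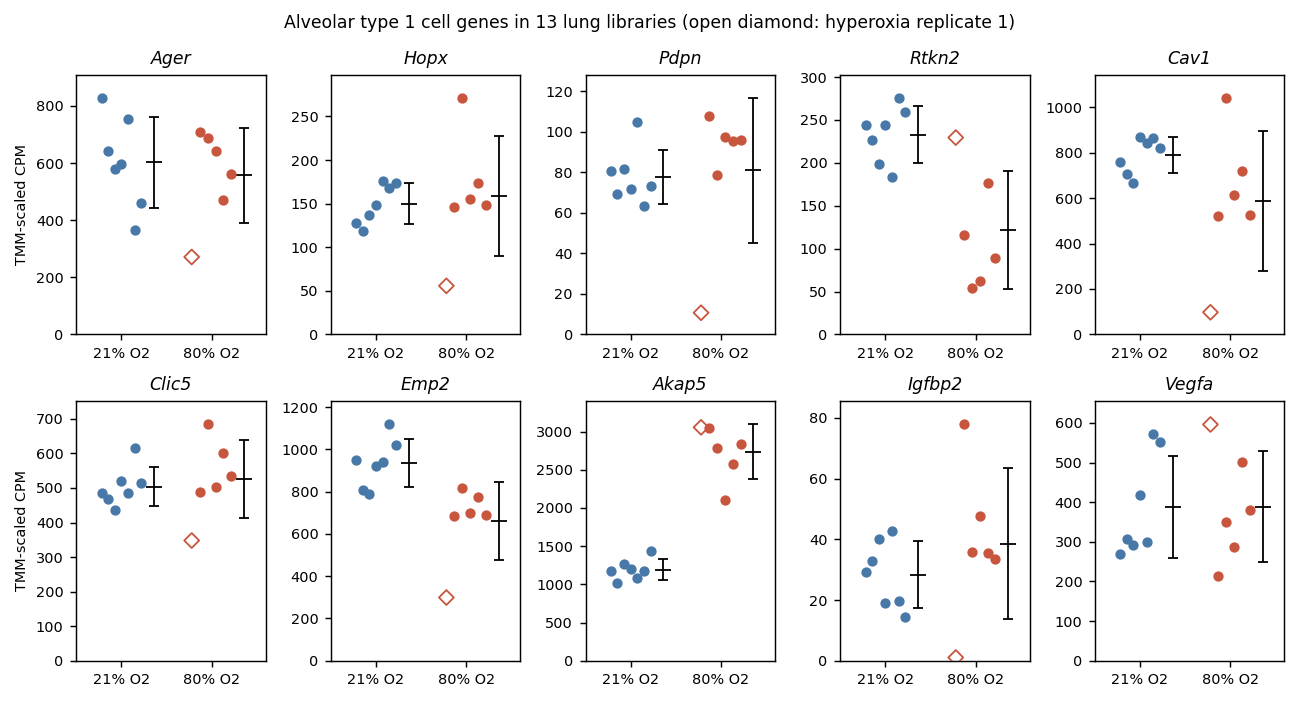
TMM-scaled CPM (y axis, from 0) of each of the 10 genes in the 7 libraries at 21% O2 and the 6 at 80% O2 (x axis), each point a library, with the group mean and SD as a bar. The 6 hyperoxic Akap5 values lie above all normoxic ones, and the open diamond, hyperoxia replicate 1, is the lowest hyperoxic point for 7 genes and the highest for Akap5, Rtkn2 and Vegfa.

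Emp2 encodes epithelial membrane protein 2, a small membrane protein with 4 membrane spans that is abundant in AT1 cells and also marks aerocytes, the capillary cells that face them. Its normoxic libraries ran from 790 CPM through a median of 941 to 1118 CPM, and its hyperoxic ones from 299 through 696 to 818 CPM. Of the 6 hyperoxic values 5, all but that of replicate 3, were below the normoxic range. The mean was 936 ± 114 (SD, n = 7) against 662 ± 185 CPM (SD, n = 6), with a log2 fold change of −0.50 (SE 0.19, 95% interval −0.91 to −0.09) that did not pass after adjustment (adjusted p = 0.0763). Leaving out replicate 1, the library with the lowest value, narrowed the spread and gave a smaller fall that passed, −0.33 (SE 0.12, adjusted p = 0.0468). Within its family of 4, Emp1, which is known from keratinizing and injured epithelium, rose from 41.4 ± 2.88 (n = 7) to 151 ± 65.8 CPM (n = 6; log2 fold change 1.87, adjusted p = 0.000895), although replicate 1 alone held 19.3 CPM. Pmp22 had a log2 fold change of −0.74 (adjusted p = 0.0933), and it passed without replicate 1 at −0.52 (adjusted p = 0.0358). Of the 6 aerocyte genes tested other than Emp2, 1 rose and 3 fell, with a median of −0.59. Their summed level was 832 to 1030 CPM in normoxia and 525 to 811 CPM in hyperoxia, led by Kdr (means 566 and 445 CPM, adjusted p = 0.0781). Kdr is shared with other endothelial genes of the lung. Among the 6 genes, Fibin (−1.73, adjusted p = 5.27e-05), Ednrb, the endothelin B receptor (−1.89, adjusted p = 0.000217), and Car4, a carbonic anhydrase of the capillary surface (−0.83, adjusted p = 0.0381), fell, while Apln, a peptide hormone, rose (1.52, adjusted p = 0.000282). The part of aerocyte transcripts in the Emp2 values was not tested.

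Cav1 encodes caveolin 1, which forms the coat of caveolae, flask-shaped membrane pits that fill AT1 and capillary endothelial cells. It ran from 664 CPM through a median of 820 to 870 CPM in normoxia and from 97.6 through 569 to 1039 CPM in hyperoxia. The groups overlapped, and both the lowest value (replicate 1) and the highest (replicate 3) of all 13 libraries were hyperoxic. The mean was 789 ± 80.5 (SD, n = 7) against 586 ± 307 CPM (SD, n = 6), a log2 fold change of −0.43 (SE 0.33, 95% interval −1.13 to 0.27, adjusted p = 0.388), and it was −0.19 (95% interval −0.54 to 0.17, adjusted p = 0.436) without replicate 1. Of the 6 caveola genes tested other than Cav1, 2 rose and 1 fell, with a median of 0.05. Cavin1 (Ptrf in the table), which is needed to build caveolae, fell (−0.89, adjusted p = 0.0257), whereas Cavin3 (Prkcdbp) rose (0.68, adjusted p = 0.0114) and so did Pacsin2, a membrane-bending protein (0.87, adjusted p = 0.00249). Cav2, the partner of Cav1 in the caveolar coat, was at −0.33 (adjusted p = 0.451). Cavin2 (Sdpr) passed only without replicate 1, at −0.42 (adjusted p = 0.0438). Of 11 pan-endothelial genes 2 rose and 2 fell (median −0.35), and without replicate 1 it was 3 and 3 (median −0.13). Their summed levels were 3542 to 6030 CPM in normoxia and 3058 to 6523 CPM in hyperoxia. Eng, a coreceptor for TGF-beta (1.02, adjusted p = 0.00334), and Egfl7, a secreted vascular protein (1.37, adjusted p = 0.00715), rose, whereas the receptor tyrosine kinase genes Tek (−0.94, adjusted p = 0.000566) and Tie1 (−0.70, adjusted p = 0.00572) fell. The part of endothelial transcripts in the Cav1 values was not tested.

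Ager encodes RAGE, a pattern-recognition receptor that AT1 cells hold on their basal membrane. Its level ran from 366 CPM through a median of 597 to 827 CPM in normoxia and from 271 through 602 to 710 CPM in hyperoxia. The groups overlapped widely, with replicate 1 the lowest of all libraries. The means were 604 ± 159 (SD, n = 7) and 557 ± 165 CPM (SD, n = 6), for a log2 fold change of −0.11 (SE 0.23, 95% interval −0.60 to 0.37, adjusted p = 0.765) with all libraries and of 0.04 (95% interval −0.34 to 0.43, adjusted p = 0.883) without replicate 1. Of 6 genes for RAGE ligands tested, 1 rose and 0 fell. This was S100a6, a calcium-binding protein, from 847 ± 129 (n = 7) to 1984 ± 467 CPM (n = 6; log2 fold change 1.23, adjusted p = 0.000119). S100a4 was lower in every hyperoxic library (14.7 ± 1.89 against 6.38 ± 4.64 CPM), and its log2 fold change of −1.13 passed only without replicate 1 (adjusted p = 0.0822 with it, and −0.90 with adjusted p = 0.035 without it). Hmgb1, a nuclear protein that binds RAGE once released, was at −0.23 (adjusted p = 0.364).

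Pdpn encodes podoplanin, a mucin-like glycoprotein of the apical AT1 membrane that is also made by lymphatic endothelium. It ran from 63.3 CPM through a median of 73.2 to 105 CPM in normoxia and from 10.7 through 95.7 to 108 CPM in hyperoxia. Replicate 1, with 20 counts, lay far below all others, and the other 5 hyperoxic libraries were between 78.5 and 108 CPM, inside or just above the normoxic range. The log2 fold change was 0.07 (SE 0.33, 95% interval −0.62 to 0.76, adjusted p = 0.909) and became 0.31 (SE 0.13, 95% interval 0.03 to 0.59, adjusted p = 0.0929) without that library. Of 7 lymphatic genes, Pdpn included, 1 rose and 0 fell. The riser was Lyve1, a hyaluronan receptor that is also found on macrophages and other endothelium (625.3 ± 148 against 5508 ± 1791 CPM, log2 fold change 3.14, adjusted p = 2.16e-07), whereas Prox1, the regulator that defines lymphatic endothelium, was at 4.57 ± 2.25 (n = 7) and 6.19 ± 2.19 CPM (n = 6; adjusted p = 0.4). The summed lymphatic level, 669 to 1057 CPM in normoxia and 3789 to 8281 CPM in hyperoxia, was mostly Lyve1. No other lymphatic gene passed. The log2 fold change was −1.08 for Ccl21a (adjusted p = 0.0792), −0.44 for Reln, −0.23 for Flt4, 0.30 for Mmrn1 and 0.47 for Prox1. Of 5 mesothelial genes 0 rose and 2 fell, with summed levels of 117 to 217 and 62.2 to 136 CPM. The part of these cells in the Pdpn values was not tested.

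Clic5 belongs to the chloride intracellular channel family and ties membranes to the actin cortex. It ran from 438 CPM through a median of 486 to 615 CPM in normoxia and from 348 through 518 to 684 CPM in hyperoxia, and the groups overlapped. The log2 fold change of 0.06 (SE 0.15, 95% interval −0.26 to 0.38, adjusted p = 0.807) was 0.17 (95% interval −0.09 to 0.44, adjusted p = 0.324) without replicate 1. Its relative Clic4 rose from 575 ± 43.2 (n = 7) to 1139 ± 97.0 CPM (n = 6), without overlap (log2 fold change 0.99, SE 0.12, adjusted p = 2.37e-05). Clic4 was the 1 gene of the 5 family members tested that passed.

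Hopx encodes a small homeodomain protein that does not bind DNA and marks AT1 cells and their progenitors. It ran from 118 CPM through a median of 148 to 176 CPM in normoxia and from 55.8 through 152 to 271 CPM in hyperoxia. Hyperoxia replicate 1 held the lowest value and replicate 3 the highest, and the other 4 hyperoxic libraries, at 146 to 173 CPM, stood within the normoxic range. The log2 fold change was 0.08 (SE 0.25, 95% interval −0.44 to 0.60, adjusted p = 0.851), and 0.27 (95% interval −0.09 to 0.63, adjusted p = 0.248) without replicate 1.

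Igfbp2 encodes a secreted binding protein for insulin-like growth factors that marks mature AT1 cells. It was the gene with the fewest counts, 48 to 123 in the normoxic and 2 to 206 in the hyperoxic libraries. It ran from 14.3 CPM through a median of 29.1 to 42.9 CPM in normoxia and from 1.07 through 35.7 to 77.8 CPM in hyperoxia. Hyperoxia replicates 2 and 4 lay above the normoxic range, and replicate 1, whose 2 counts are under the 3 counts taken as the floor of detection, lay below it. The log2 fold change of 0.47 (SE 0.47, 95% interval −0.53 to 1.46, adjusted p = 0.521) became 0.73 (SE 0.28, 95% interval 0.15 to 1.31, adjusted p = 0.0568) without that library. It was 0.17 (adjusted p = 0.832) without replicate 2, the library with the highest value. Of the 8 genes of the IGF system tested other than Igfbp2, 2 rose and 4 fell, with a median of −0.48. Igfbp3 (−1.91, adjusted p = 0.00937), Igfbp6 (−1.35, adjusted p = 0.00989) and Igfbp5 (−0.69, adjusted p = 0.0115), all of them binding proteins like Igfbp2, fell, and so did the receptor gene Igf1r (−0.56, adjusted p = 0.0137). Igfbp4 (0.52, adjusted p = 0.0156) and the ligand gene Igf1 (0.69, adjusted p = 0.0326) rose.

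Vegfa encodes the endothelial growth factor that AT1 cells supply to the aerocytes beside them. It ran from 269 CPM through a median of 307 to 572 CPM in normoxia and from 213 through 366 to 596 CPM in hyperoxia, so that the groups overlapped throughout. The means of 387 ± 129 (SD, n = 7) and 389 ± 141 CPM (SD, n = 6) gave a log2 fold change of 0.0035 (SE 0.25, 95% interval −0.53 to 0.53, adjusted p = 0.995), and of −0.14 (95% interval −0.64 to 0.35, adjusted p = 0.681) without replicate 1, which held the highest value. The normoxic libraries formed separate sets, with normoxia replicates 6 and 7 at 572 and 553 CPM and the other 5 at 269 to 418 CPM. Of the 9 VEGF ligand and receptor genes other than Vegfa, 1 rose and 2 fell (median −0.15). Pgf, the placental growth factor gene, rose from 1.43 ± 0.664 (n = 7) to 8.31 ± 3.92 CPM (n = 6; log2 fold change 2.48, adjusted p = 0.000263). The receptor genes Nrp1 (1222 ± 139 against 581 ± 186 CPM, −1.07, adjusted p = 0.00105) and Flt1 (458 ± 44.2 against 326 ± 49.6 CPM, −0.49, adjusted p = 0.0119) fell. Kdr, the main signalling receptor, was at −0.35 (adjusted p = 0.0781) and passed without replicate 1 at −0.37 (adjusted p = 0.0402). The ligand gene Vegfc also passed only without replicate 1, upwards, at 0.61 (adjusted p = 0.0345).

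Hyperoxia replicate 1 did not differ from the other 5 hyperoxic libraries in one direction. As a percentage of their mean it was at 2.32% for Igfbp2, 11.3% for Pdpn, 14.3% for Cav1, 31.2% for Hopx, 40.8% for Emp2, 44.2% for Ager and 61.9% for Clic5, the lowest hyperoxic value in each case. For Akap5 (114%), Vegfa (172%) and Rtkn2 (230%) it was the highest. Among the AT2 genes it held 32.7 CPM of Sftpc, where the other hyperoxic libraries held 666 to 2915 CPM, while of 8 pan-epithelial genes it was below all other hyperoxic libraries for 5, above them for 1 and among them for 2. It held 1 count of Krt8 (0.536 CPM, against 80.3 to 269 CPM in the others) and 1.07 CPM of Cldn3, a tight-junction gene (19.4 to 43.1 CPM), but 130 CPM of Cdh1, the E-cadherin gene (75.2 to 101 CPM), and 56.3 CPM of Epcam (43.1 to 81.0 CPM). Why this library differed was not tested.

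**Figure D3:**
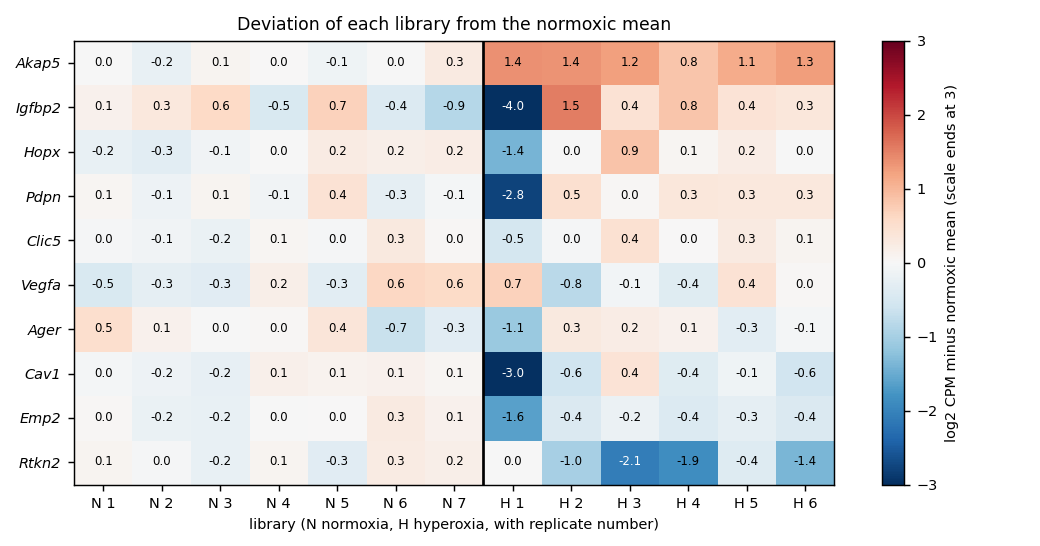
Difference of each library's log2 CPM from the normoxic mean (colour and printed value, colours ending at 3) for the 10 genes (rows) in the 7 normoxic (N) and 6 hyperoxic (H) libraries (columns). Akap5 is positive in every hyperoxic library, Rtkn2 negative in replicates 2 to 6 and close to 0 in replicate 1 (−0.0095), and H 1 carries the lowest hyperoxic values of 7 genes.

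Among 19 other AT1 genes tested 4 rose and 1 fell, with a median log2 fold change of 0.15. Lmo7, an actin and cadherin adaptor, rose from 696 ± 61.4 (n = 7) to 1587 ± 276 CPM (n = 6; log2 fold change 1.19, SE 0.14, adjusted p = 2.19e-05). Krt7, a simple-epithelium keratin, rose from 394 ± 41.9 to 874 ± 162 CPM (1.15, SE 0.14, adjusted p = 3.46e-05). Both separated the groups in every library, as did Timp3, a metalloproteinase inhibitor (0.81, adjusted p = 0.000824), and Fstl3, a binder of activin, rose with overlap (2.01, adjusted p = 0.00265). Lama3, a laminin chain of the basement membrane, named here after its value was seen as the one gene that fell, had a log2 fold change of −0.76 (adjusted p = 0.00934). Without replicate 1, 7 of the 19 rose and 2 fell (median 0.23). Of 11 regulators of alveolar epithelial identity, listed for AT1 cells although some also act in AT2 cells, 1 rose and 2 fell. Their median was −0.22, and −0.11 without replicate 1. Wwtr1, which encodes the YAP partner TAZ, rose (0.59, SE 0.14, adjusted p = 0.00551). Nkx2-1, the lung lineage factor shared by AT1 and AT2 cells, fell from 103 ± 12.9 (n = 7) to 53.6 ± 12.2 CPM (n = 6; −0.95, adjusted p = 0.000516), as did Cebpa, which is best known from AT2 cells (−0.85, adjusted p = 0.0217).

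Genes of the neighbouring epithelial states were measured in the same fit. Of 12 AT2 genes 0 rose and 9 fell, with a median of −1.48 and a summed level of 17923 to 31271 CPM in normoxia and 5226 to 10297 CPM in hyperoxia. Lamp3, a lamellar-body protein, went from 304 ± 29.5 (n = 7) to 91.5 ± 7.43 CPM (n = 6; log2 fold change −1.73, adjusted p = 2.01e-07). Of 9 genes of the transitional alveolar state 6 rose and 0 fell (median 1.67). Cdkn1a, the p21 inhibitor of the cell cycle that is not restricted to epithelium, had the smallest adjusted p. It rose from 48.7 ± 12.8 (n = 7) to 1424 ± 255 CPM (n = 6; 4.86, adjusted p = 1.09e-09). Lgals3, which macrophages also make, was next by adjusted p (1.92, adjusted p = 1.21e-06), although Areg rose further (3.06, adjusted p = 1.04e-05). The keratin genes Krt8 (1.24, adjusted p = 0.131) and Krt19 (1.23, adjusted p = 0.0627) passed only without replicate 1 (1.51, adjusted p = 0.0007, and 1.497, adjusted p = 0.000261), when 9 of 10 tested rose. Of 8 pan-epithelial genes 1 rose and 0 fell (median 0.07), and without replicate 1 it was 3 and 0 (median 0.17). Epcam was at 60.9 ± 4.17 (n = 7) and 65.7 ± 14.3 CPM (n = 6; adjusted p = 0.644). Of 6 airway genes 0 rose and 2 fell (median −1.18), with summed levels of 14518 to 53138 CPM in normoxia and 232 to 10058 CPM (median 5024) in hyperoxia. Scgb1a1 led the sum and fell from 33862 ± 12543 (n = 7) to 4349 ± 2986 CPM (n = 6; −2.96, adjusted p = 0.00188), as did Cyp2f2 (−2.71, adjusted p = 0.000241). Scgb3a2 (−1.28, adjusted p = 0.0841) and Muc5b (−1.07, adjusted p = 0.0578) did not pass. Foxj1 was at −0.0077 (adjusted p = 0.994) and Ccdc39 at −0.10 (adjusted p = 0.84). These lists were not tested against the AT1 genes, so that the medians are side-by-side descriptions.

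**Figure D4:**
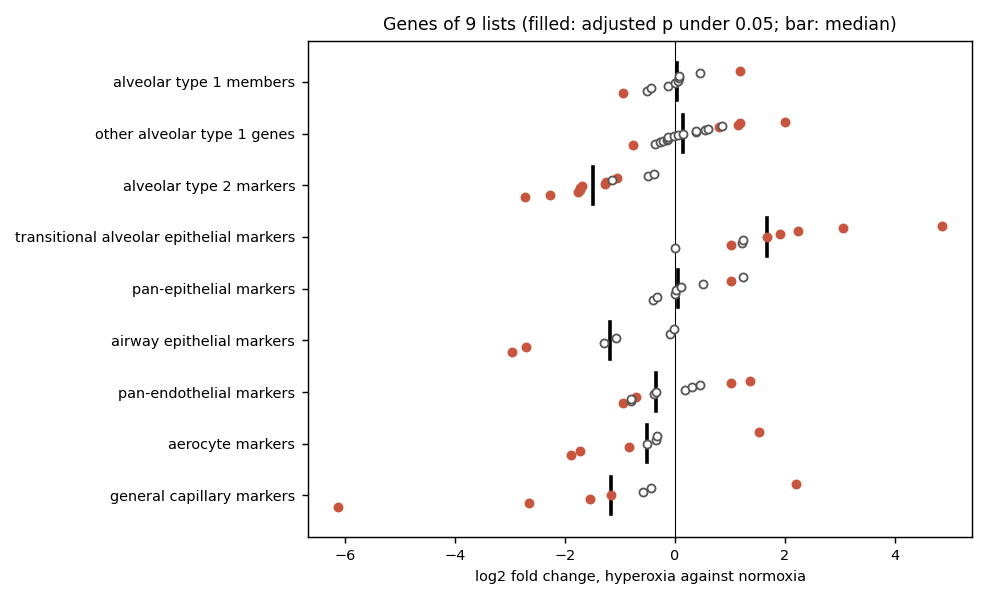
Log2 fold changes of hyperoxia against normoxia (x axis) for the tested genes of 9 lists (y axis), each point a gene, filled where the adjusted p was under 0.05, with a bar at the list's median. The 10 AT1 genes centre on 0.03, the 12 AT2 genes on −1.48 and the 9 transitional genes on 1.67.

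The library names carry single letters, with B to M on 5 of the normoxic and 3 of the hyperoxic ones and O to S on the other 2 and 3, and the labels do not say what the letters mean. Normoxic Vegfa was at 317 ± 58.4 CPM (SD, n = 5) in the first set and at 562 ± 13.5 CPM (SD, n = 2) in the second, and normoxic Ager at 680 ± 107 and 412 ± 65.7 CPM. Normoxic Rtkn2 was at 219 ± 27.5 and 267 ± 11.4 CPM, and normoxic Emp2 at 882 ± 76.8 and 1069 ± 68.7 CPM. For these 4 of the 10 genes the normoxic libraries of the sets did not overlap, as for 28.7% of all genes tested. Within B to M 8.8% of all genes tested passed, and within O to S 21.3%. Within B to M and within O to S, the log2 fold change was 1.42 and 0.93 for Akap5, which passed in both, −0.66 and −1.30 for Rtkn2, which passed only in the second (adjusted p = 0.311 in the first), 0.35 and −0.54 for Vegfa and −0.25 and 0.43 for Ager, neither of which passed in either set. In the O to S set, which lacks hyperoxia replicate 1, further genes passed: Emp2 (−0.58, adjusted p = 0.0173), Pdpn (0.49, adjusted p = 0.0417) and Igfbp2 (1.18, adjusted p = 0.0136). A test of the difference between the sets themselves (edgeR, interaction term) gave 0 of 12496 genes, which is 0% called, at an adjusted p under 0.05, and 1158 at an unadjusted p under 0.05. No AT1 gene was among the latter, the smallest p being 0.0943 for Vegfa.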

How the data were processed

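Lungs of 13 mice (7 normoxia, 6 hyperoxia) were profiled by Quant-seq, and groups followed the sample labels. The authors aligned reads to mm10 transcripts with kallisto and used limma 3.54.2, per the submitters' processing notes, and deposited whole-number counts per gene together with a table of log10 values. From the values, the deposited log10 table is log10(CPM + 1). The annotation release, the strand setting and any use of molecular identifiers are not given in the sources used here. Counting error is set by the depth of 1607111 to 4540288 counts per library, and the total counts and the floor of 3 counts do not cover amplification. The intervals rest on the spread between libraries. They therefore hold amplification noise that varies from library to library, but no bias that all libraries share.

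Counts were tested with edgeR 4.0.16 in R 4.3.3 (filterByExpr, TMM, glmQLFit and glmQLFTest, no covariate), with Benjamini-Hochberg adjustment over 12496 genes and a threshold of 0.05. Levels are TMM-scaled CPM, and drawn log2 CPM values carry a prior count of 2. Standard errors and 95% intervals come from the fitted coefficient and its quasi-likelihood F. The 13 libraries are separate mice, as far as the labels tell. Other settings were DESeq2 1.42.0, limma 3.58.1 (voom, and trend on the log10 values), other scalings and filters, sets of library-name letters, a replicate block and each library left out. Transcript length and GC content were adjusted for in a setting chosen after seeing the data. The code was tested on simulated counts.

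The 10 genes and the 21 other gene lists were chosen with earlier results of these data known. Named are all 10 genes, up to 4 genes of smallest adjusted p in a list, and partners or relatives of the gene described. Sftpc, Epcam, Cdh1, Cldn3, Prox1, Flt4, Mmrn1, Foxj1, Ccdc39, Krt8, Krt19 and Lama3 were named outside this rule, after their values were seen. Lists share genes, for example Emp2, which is also an aerocyte gene, and Pdpn, which is also a lymphatic gene. Kdr is in the pan-endothelial, aerocyte and VEGF lists, Flt4 in the lymphatic and VEGF lists, and S100a8 in the leukocyte and RAGE ligand lists. Krt8 and Krt18 stand in both the transitional and the pan-epithelial list. Promoter windows came from RefSeq.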

Additional observations from a re-analysis of the deposited data

Results flagged for a closer look

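In 22 groups of member levels and total counts, the gap of an extreme library to its neighbour, as a share of the group's range, was compared with Dixon's 95% critical value, which chance passes in about 1 of 20 groups. Of these groups 3 passed, where about 1 would by chance. The groups share libraries and are not independent, and the flagged library for both Pdpn and Emp2 had already been seen to stand apart. Pdpn in hyperoxia had replicate 1 at 10.7 CPM, with the next library at 78.5 CPM (ratio 0.699). Emp2 in hyperoxia also had replicate 1 lowest, at 299 CPM, with the next at 687 CPM (ratio 0.747). The total count of normoxia replicate 5 was 1607111, with the next normoxic library at 2696280 (ratio 0.612).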

How the results depend on the processing

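Akap5 passed in every fit tried, with log2 fold changes of 1.18 to 1.28 when each library was left out in turn and of 0.93 to 1.42 otherwise. A single gene was called higher in every setting but within the O to S libraries (3, namely Pdpn, Akap5 and Igfbp2) and at a log2 fold change of at least 1.5 (0). It was 1 in each of the 13 fits that left out a library. The number called lower, 1, went to 2 with limma on the deposited log10 values, with at least 10 counts in every library, with the letter set as a term and within O to S, Emp2 being the second gene each time. It went to 0 within B to M, at a log2 fold change of at least 1.5, by no overlap between the groups, and with the replicate block over the 12 libraries whose number both groups share (Rtkn2 -1.09, adjusted p = 0.0589). The same 12 libraries without the block, which leave out normoxia replicate 7, also gave 0 (Rtkn2 -0.90, adjusted p = 0.0574). Leaving out each library gave 0 to 2. Replicate numbers were shared by both groups, but same-numbered libraries correlated at only -0.325 to 0.272 in their deviations and none best with its own number, so that the block is an arbitrary pairing. Over all genes there were 2819 calls with all libraries, 2397 with these 12 and 1291 with these 12 and the block.

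Of the log2 fold changes of single genes under other settings 201 kept direction and call, 30 changed sign, 7 gained and 11 lost a call. The signs changed only for genes with no call in either fit, as follows. Ager was at 0.43 within O to S. Hopx was at -0.027 with voom, -0.00058 with library size alone, -0.12 on the log10 values, -0.12 within O to S and -0.0014 with the length and GC correction. Pdpn was at -0.12 with voom, -0.28 on the log10 values, -0.11 with the replicate block and -0.27 within B to M. Clic5 was at -0.014 with library size alone, -0.034 on the log10 values and -0.058 within O to S, and Igfbp2 at -0.098 on the log10 values. Vegfa was at -0.019 with voom, -0.085 with library size alone, -0.086 on the log10 values, -0.070 with at least 10 counts, -0.034 with the letter term and -0.54 within O to S. Leaving out each library gave -0.20 to 0.044 for Ager, -0.12 to 0.27 for Hopx, -0.0088 to 0.31 for Pdpn, -0.0048 to 0.17 for Clic5, -0.14 to 0.16 for Vegfa, 0.17 to 0.73 for Igfbp2, -0.66 to -0.19 for Cav1 and -0.55 to -0.33 for Emp2. Igfbp2 was also at 0.13 with voom and 0.097 with the replicate block, and Cav1 at -0.70 with voom and -0.78 on the log10 values, with no call. The cause was not tested. The log10 values moved the median of all genes from -0.03 to -0.16 and the share of calls that were higher from 52.3% to 38.8%, and the same share was 42.7% with library size alone and 60.6% within B to M. Igfbp2 had no value with at least 10 counts in every library, since hyperoxia replicate 1 held 2.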

Other observations

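Other cells of the lung gave the following counts beside those of the AT1 genes. Of 7 general capillary genes 1 rose and 4 fell (median -1.16): Aplnr, the apelin receptor, averaged 13.96 ± 4.57 CPM in the 7 normoxic and 0.149 ± 0.257 CPM in the 6 hyperoxic libraries, while Cd93, a lectin-like receptor, rose (log2 fold change 2.20, adjusted p = 1.66e-06). Of 8 leukocyte genes 1 rose and 3 fell (median -0.33), among them Cd79a, a part of the B-cell receptor (-1.80, adjusted p = 0.00103). Of 6 fibroblast genes 1 rose and 2 fell (median 0.09), with Pdgfra at 1.19 (adjusted p = 0.000107) and Inmt at -1.97 (adjusted p = 0.0279). Of 6 mural genes 1 rose, Acta2 (0.77, adjusted p = 0.00485), and 0 fell (median 0.28).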
